A study of Mus musculus with 5 samples.

Results

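Potassium channel genes were read in RNA sequencing libraries of sorted cells from the neonatal mouse retina. The 74 genes described here were chosen by their symbols and by their level: a mouse symbol that begins with Kcn and ends in letters and a number, with a mean normalised read count of at least 10 over the 5 libraries. Of 92 such symbols in the table of 24594 genes, 15 fell under that mean, 6 of them at 0 in all libraries, and Kcnj8, Kcnj10 and Kcnq1 were left out by name. The rule used the mean over all libraries and not the difference between groups, but it was set with earlier results of these data known. Kcnma1 was moreover singled out by name with its low values already known, so its difference is given as a description and without a p-value. The members nearest the limit were Kcnj2 (mean 10.8) and Kcnmb3 (11.5), and those just under it were Kcne3 (8.12) and Kcne4 (6.80).

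The 2 groups were compared, each of mouse retinal cells. Both received a plasmid driven by the CAG promoter, which is active in most cell types, by electroporation of living pups at postnatal day 0, and retinas were collected after 4 days. The plasmid carried GFP in the 2 control libraries and Zfp292, a nuclear zinc finger protein, in the 3 libraries labelled Zfp292-OE. GFP-positive cells, named RPC in the labels, were sorted before RNA extraction, and neither strain nor litter is given. No source says whether the libraries of 1 group are from different animals, so the error behind each p-value is the spread among these libraries and may be technical.

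Potassium channels let potassium leave or enter the cell along its gradient and so set the resting potential and end electrical signals. Voltage-gated (Kv) channels are built of 4 pore-forming subunits, some of which are modifiers that make no channel alone, and cytoplasmic or membrane accessory subunits adjust them. Other families are opened by intracellular calcium or sodium, rectify inwardly, or, in the two-pore family, leak at rest. In the retina, voltage-gated channels carry a standing potassium current in the photoreceptor inner segment, and BK channels, whose pore is Kcnma1, shape signalling in inner retinal neurons.

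Promoter sequences from RefSeq (GRCm38.p6), 250 bases before to 50 after a start site, were matched for 51 of the 74 genes. The start sites shown for Kcnma1, Kcnc1 and Kcnk1 lie inside the span of the gene, not at its outer end. Promoters are shown for 3 genes that were lower in the libraries labelled Zfp292-OE and for Kcnk1, the most abundant member per length, which did not pass the test. Each runs 5′ to 3′ on the strand of the gene, and capitals mark the GC box, GGGCGG, on either strand. Kcnma1 is shown from chr14:24004156-24004455 (minus strand), Kcnc1 from chr7:46396218-46396517 (plus strand), Kcnd3 from chr3:105451640-105451939 (plus strand) and Kcnk1 from chr8:125994852-125995151 (plus strand).
Kcnma1: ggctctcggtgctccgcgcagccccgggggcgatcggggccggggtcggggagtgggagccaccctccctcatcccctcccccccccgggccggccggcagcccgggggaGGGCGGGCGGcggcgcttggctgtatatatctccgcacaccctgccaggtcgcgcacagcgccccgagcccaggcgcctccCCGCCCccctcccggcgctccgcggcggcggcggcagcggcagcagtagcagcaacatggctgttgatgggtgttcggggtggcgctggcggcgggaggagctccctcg
Kcnc1: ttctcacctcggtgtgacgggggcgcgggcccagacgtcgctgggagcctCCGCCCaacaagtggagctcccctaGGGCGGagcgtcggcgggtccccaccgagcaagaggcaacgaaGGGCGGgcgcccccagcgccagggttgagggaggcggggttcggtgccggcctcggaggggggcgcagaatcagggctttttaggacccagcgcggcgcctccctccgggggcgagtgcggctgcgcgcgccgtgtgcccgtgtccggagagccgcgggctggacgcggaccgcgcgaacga
Kcnd3: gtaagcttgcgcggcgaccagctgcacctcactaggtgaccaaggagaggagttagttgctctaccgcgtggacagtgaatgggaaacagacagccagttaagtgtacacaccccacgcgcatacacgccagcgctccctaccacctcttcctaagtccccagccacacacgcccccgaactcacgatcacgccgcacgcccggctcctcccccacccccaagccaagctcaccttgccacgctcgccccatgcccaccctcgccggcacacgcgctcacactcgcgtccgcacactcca
Kcnk1: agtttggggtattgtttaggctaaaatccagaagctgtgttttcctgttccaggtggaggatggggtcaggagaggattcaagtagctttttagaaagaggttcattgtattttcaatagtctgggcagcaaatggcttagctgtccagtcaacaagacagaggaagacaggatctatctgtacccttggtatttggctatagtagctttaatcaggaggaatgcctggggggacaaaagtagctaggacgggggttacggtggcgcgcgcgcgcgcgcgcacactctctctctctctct

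The promoters of Kcnma1 and Kcnc1 were rich in G and C, at 78% and 74.7%, with 3 GC boxes each, of which 2 overlap one another in Kcnma1. Kcnd3 had 64% and Kcnk1 49%, both with 0 GC boxes. A GC box stood in 29 of the 51 member promoters (56.9%) and in 35.9% of the first promoters of all 27025 genes in that table. Of the 7 promoters of members lower past the threshold, 4 held one, as did 25 of the other 44. The core motif of the photoreceptor factor CRX, TAATCC on either strand, was in 0 of those 7, in 2 of the other 44 (Kcnj9 and Kcng4) and in 7.16% of all first promoters. A TATA box, TATAAA on either strand, was in 0 of the 7, in 2 of the 44 and in 14.2% of all. These are counts of letters in a window of 300 bases and no measure of binding.

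The controls had 13288 and 14756 normalised reads of Zfp292 itself, and libraries 1 to 3 labelled Zfp292-OE had 14631, 13197 and 15534, so the groups overlapped and directions below follow the labels. Reads assigned to genes numbered 103096224 to 137683716 per library. Markers of the cells present differed between the groups. In the limma test given below, 7.38% of all genes tested were lower and 10% higher. All 10 rod markers and 7 of 9 bipolar markers fell, all 8 proliferation markers and 5 of 8 progenitor markers rose, and among 8 Müller glia markers 4 fell and 1 rose. Of the progenitor list 1 marker fell. The summed level of the rod list ran from 587550 to 709989 in control and from 152130 to 168436 in the libraries labelled Zfp292-OE, with no rod marker at 0 in any library. For the bipolar list the sums were 204386 to 235094 and 151483 to 237233, most of them Otx2, and Vsx1, Grm6 and Bhlhe23 were at 0 in at least 1 library. In RNA from pooled sorted cells, fewer cells of a type and less RNA per cell cannot be told apart, and the part of cell composition in the channel results was not tested.

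Potassium channel genes that passed the test were lower in the libraries labelled Zfp292-OE. In limma with adjustment over all 16316 genes tested, 10 of the 74 members passed an adjusted p of 0.05 and were lower, and 0 were higher; without Kcnma1 the count was 9 of 73. Over all genes tested 17.4% passed, 7.38% lower and 10% higher. edgeR also called 10 members lower and 0 higher. At an unadjusted p below 0.05, 24 members passed in limma, 0 of them higher. The median log2 fold change of the members was −1.01, and it stayed there with genes absent from 1 group set at their bound; the median of all genes tested was −0.06. In 43 members every library labelled Zfp292-OE lay below both controls, against 25.7% of all genes, and in 2 members, Kcnk1 and Kcnj3, every one lay above, against 24.3%. The remaining 29 overlapped. Of the 43, Kcnj5, Kcnj2, Kcnmb1, Kcnmb3, Kcns1, Kcnv1, Kcnk9 and Kcnq5 met the mean of 10 through the controls alone. They are also in the median.

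**Figure D1:**
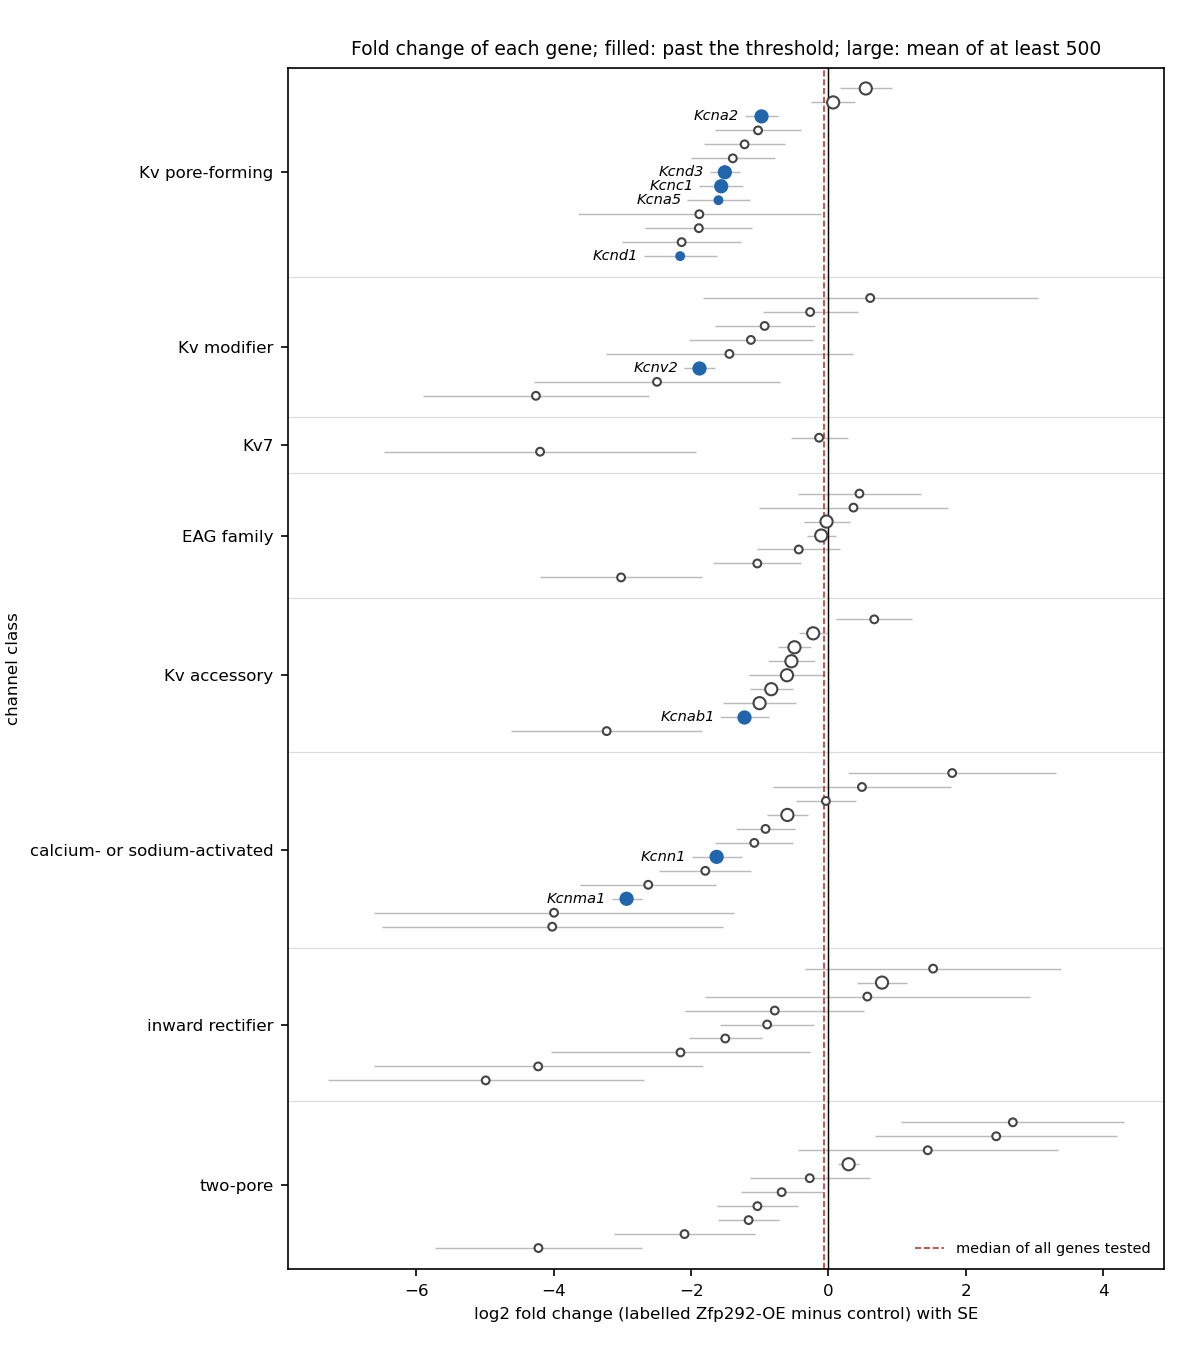
Log2 fold change (horizontal axis, libraries labelled Zfp292-OE minus control, bars are SE from limma) of 70 of the 74 genes, by channel class (vertical axis). Filled points passed an adjusted p of 0.05, large points had a mean of at least 500, and the dashed line is the median of all genes tested (−0.06); the 9 filled points all lie left of it, 5 of them in the Kv pore-forming class.

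The calls lay mostly among the abundant members. Of 23 members with a mean of at least 500, 8 were lower and 0 higher past the threshold (7 of 22 without Kcnma1), where 9.39% of all genes at that level were lower and 14.3% higher. Of the 51 members under that mean 2 passed, Kcnd1 and Kcna5. That is 3.92%, where 7.38% of all genes tested, at any level, were lower. Over all genes too, the share lower was larger at a mean of at least 500. Of the 20 members under a mean of 50 none passed in limma or edgeR, with 2 at an unadjusted p below 0.05. All 10 calls needed both controls. Without control library 1 their limma adjusted p ranged from 0.0545 to 0.235 and their log2 fold changes from −2.86 to −1.03, and without control library 2 from 0.111 to 0.234 and from −3.02 to −0.92. In each of these fits 1 gene in the whole table passed, and it was not a member. All 10 were lower in each of the 15 alternative settings.

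**Figure D2:**
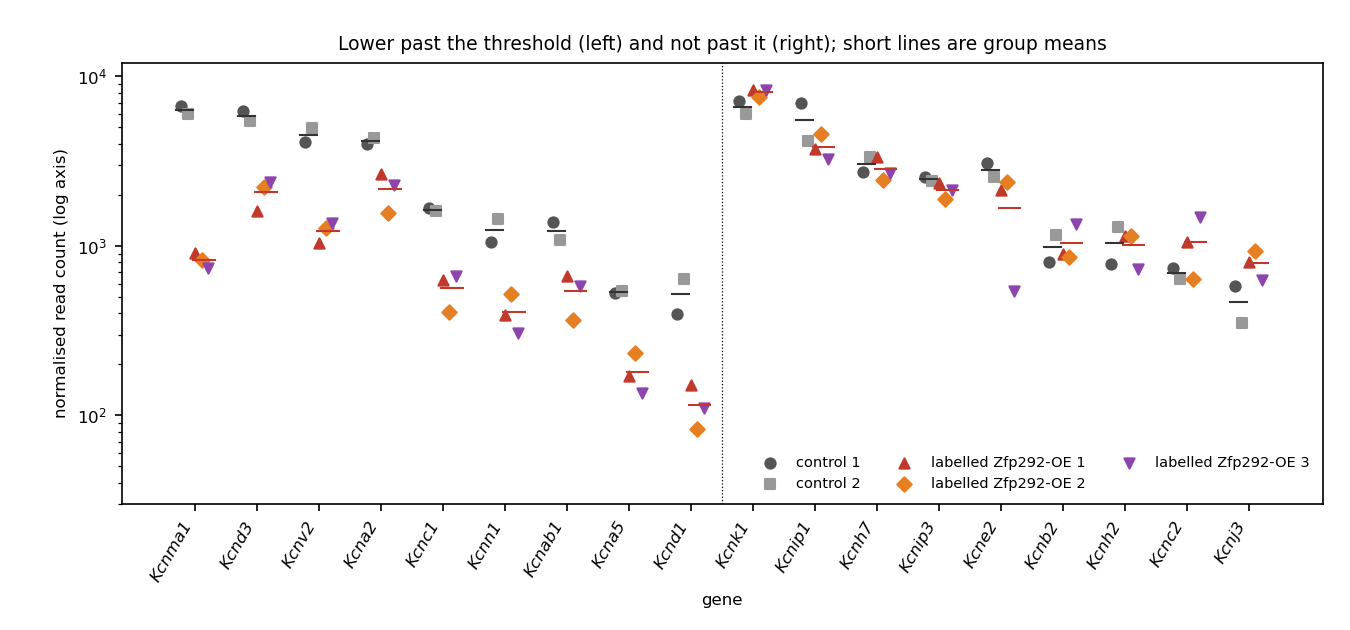
Normalised read count (vertical log axis) of named members in each library, with short lines at the group means. In the 9 genes on the left both controls lie above all 3 libraries labelled Zfp292-OE, while on the right most groups overlap, Kcnk1 and Kcnj3 lie above both controls, and Kcne2 has 1 low library (540).

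Kcnma1, the pore of the large-conductance calcium- and voltage-activated (BK) channel, had the lowest log2 fold change among members with a mean of at least 500. The gene (Entrez 16531) spans chromosome 14 from 23292288 to 24005110. Its normalised read counts were 6663 and 5990 for the controls, and 906, 827 and 744 for the 3 libraries labelled Zfp292-OE. The groups were far apart and the libraries within each close, with means of 6327 ± 476 (SD, n = 2) and 826 ± 80.9 (SD, n = 3). This is a log2 fold change of −2.94 (SE 0.22), or 7.67-fold lower, and between −3.16 and −2.86 in the alternatives. Exons annotated to other genes cover 5.98% of its exon bases, the largest part from an antisense gene.

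The BK beta subunits tune calcium sensitivity and gating of the channel. All 4 were lower in every library labelled Zfp292-OE than in both controls, as were 25.7% of all genes tested, but none passed the test. Kcnmb1 (99.2 and 1.54 in control) and Kcnmb3 (53.4 and 3.85) were at 0 in every library labelled Zfp292-OE. These genes met the mean limit through the controls alone, so the rule itself favoured their place below both controls. Kcnmb4, the neuronal beta subunit, had 405 and 642 in control and 235, 326 and 256 in the libraries labelled Zfp292-OE (limma adjusted p = 0.17). Exons annotated to other genes cover 31.5% of its exon bases, the largest part from an antisense gene. Kcnmb2 had 612 and 186 against 125, 63.9 and 113 (limma adjusted p = 0.094), with control library 1 far above control library 2, and it passed in DESeq2 (adjusted p = 0.024). Per kb of exon, Kcnma1 was at 3.22 and 1.83 times Kcnmb4 in the controls and at 0.755, 0.497 and 0.568 times in the others, so the order of the pair was opposite in the 2 groups. Against Kcnmb2 the ratio was 2.0 and 5.92 in control and 1.33, 2.38 and 1.21 in the others, and these ranges overlap.

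Small-conductance calcium-activated (SK) channels, which open to calcium alone and follow action potentials with a hyperpolarisation, had 1 call. Kcnn1 (Entrez 84036, chromosome 8, 70843158 to 70865691) fell from 1050 and 1432 to 389, 523 and 306, a log2 fold change of −1.63 (SE 0.36) with a limma adjusted p of 0.015. Kcnn2, its relative, had 956 and 1178 against 617, 757 and 738, with a log2 fold change of −0.60 (95% interval −1.25 to 0.06). Kcnn1 was at 1.79 and 1.98 times Kcnn2 per kb in the controls and at 1.03, 1.12 and 0.674 times in the others, without overlap. Kcnn4, the intermediate-conductance channel, had 350 and 533 against 105, 243 and 331 (limma adjusted p = 0.22). Kcnn3 varied widely within the groups, from 8.47 to 171 in control and from 20.7 to 100 in the others. The sodium-activated Kcnt1 had 162 and 127 against 55.9, 8.46 and 23.0 (limma adjusted p = 0.097), while its relative Kcnt2 had 1.09 and 68.5 against 28.5, 32.9 and 73.2. Kcnu1, related to Kcnma1 and known from sperm, stood at 295 to 323 in control and 237 to 368 in the others. Apart from Kcnma1, which was singled out with its values known, 1 of the 11 other genes of this class fell, 0 rose and 10 did not pass. That is 9.09% lower, near the 7.38% of all genes tested. Their median log2 fold change was −1.08.

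Kv pore-forming genes held 6 of the 10 calls. Of 15 members of this class, 6 fell (40%), 0 rose and 9 did not pass, against 7.38% lower and 10% higher over all genes tested. The median log2 fold change was −1.56. In 12 every library labelled Zfp292-OE lay below both controls, as in 25.7% of all genes tested. Those named below are 5 of the 6. Kcnb2, a delayed rectifier of neurons, did not pass. Its counts of 805 and 1156 in control and 892, 858 and 1355 in the others overlapped, with a log2 fold change of 0.07 (95% interval −0.64 to 0.78). Ratios between genes per kb are given below as values in each library. The smallest two-sided p an exact permutation test can give for 2 against 3 libraries is 0.2, so no test of such ratios was made.

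The A-type channels of the Kcnd family open and inactivate quickly below threshold. All 3 members lay below both controls in every library labelled Zfp292-OE, as did 25.7% of all genes tested. Of the 3, 2 passed as lower, where 7.38% of all genes tested did. Kcnd3 (Entrez 56543, chromosome 3, 105451890 to 105674002) had 6258 and 5437 in control and 1612, 2228 and 2398 in the others, with means of 5848 ± 580 (SD, n = 2) and 2080 ± 414 (SD, n = 3). It fell by 1.51 on the log2 scale (SE 0.22, limma adjusted p = 0.0022). Kcnd1 (Entrez 16506, chromosome X, 7823759 to 7838278) fell from 395 and 641 to 151, 83.6 and 111, a log2 fold change of −2.16 (SE 0.53, limma adjusted p = 0.022), which missed the threshold with no filter on low values (limma adjusted p = 0.052). Kcnd2 had 280 and 338 against 165, 72.4 and 189, also without overlap, but did not pass (log2 fold change −1.22, limma adjusted p = 0.18).

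Among the Kcnc family, channels of fast-firing neurons, 1 of 4 passed as lower, where 7.38% of all genes tested did. Kcnc1 (Entrez 16502, chromosome 7, 46396219 to 46438706) fell from 1677 and 1597 to 626, 407 and 667, a log2 fold change of −1.56 (SE 0.32, limma adjusted p = 0.010). Kcnc2 had 739 and 637 against 1051, 641 and 1487, overlapping and with a log2 fold change of 0.54 (95% interval −0.29 to 1.38). The ratio of Kcnc1 to Kcnc2 per kb was 1.71 and 1.89 in the controls and 0.450, 0.479 and 0.338 in the others. Kcnc4 lay lower without overlap and did not pass (122 and 344 against 20.5, 46.1 and 100, limma adjusted p = 0.12).

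The Shaker-related Kcna family was led by Kcna2, a channel of axons and their terminals (Entrez 16490, chromosome 3, 107090883 to 107115005). It had 3986 and 4314 in control and 2645, 1555 and 2284 in the others, a fall by 0.97 on the log2 scale (SE 0.25, limma adjusted p = 0.025). The call was lost without library 2 labelled Zfp292-OE (log2 fold change −0.75, limma adjusted p = 0.055). Kcna5, a delayed rectifier (Entrez 16493, chromosome 6, 126532551 to 126535555), fell from 531 and 540 to 171, 233 and 136, a log2 fold change of −1.60 (SE 0.46, limma adjusted p = 0.039). It was lost without library 1 (limma adjusted p = 0.080) or library 3 (limma adjusted p = 0.069) labelled Zfp292-OE, after quantile normalization (0.096) and with no filter (0.077). Kcna1, Kcna4 and Kcna6 were lower without overlap, at log2 fold changes of −1.89, −1.02 and −1.39, and did not pass. Exons annotated to other genes cover 39.6% of the exon bases of Kcna6, the largest part from an antisense gene. Kcna3, an abundant channel of immune cells, was low and overlapped, at 29.4 and 33.1 against 0, 52.6 and 11.5.

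**Figure D3:**
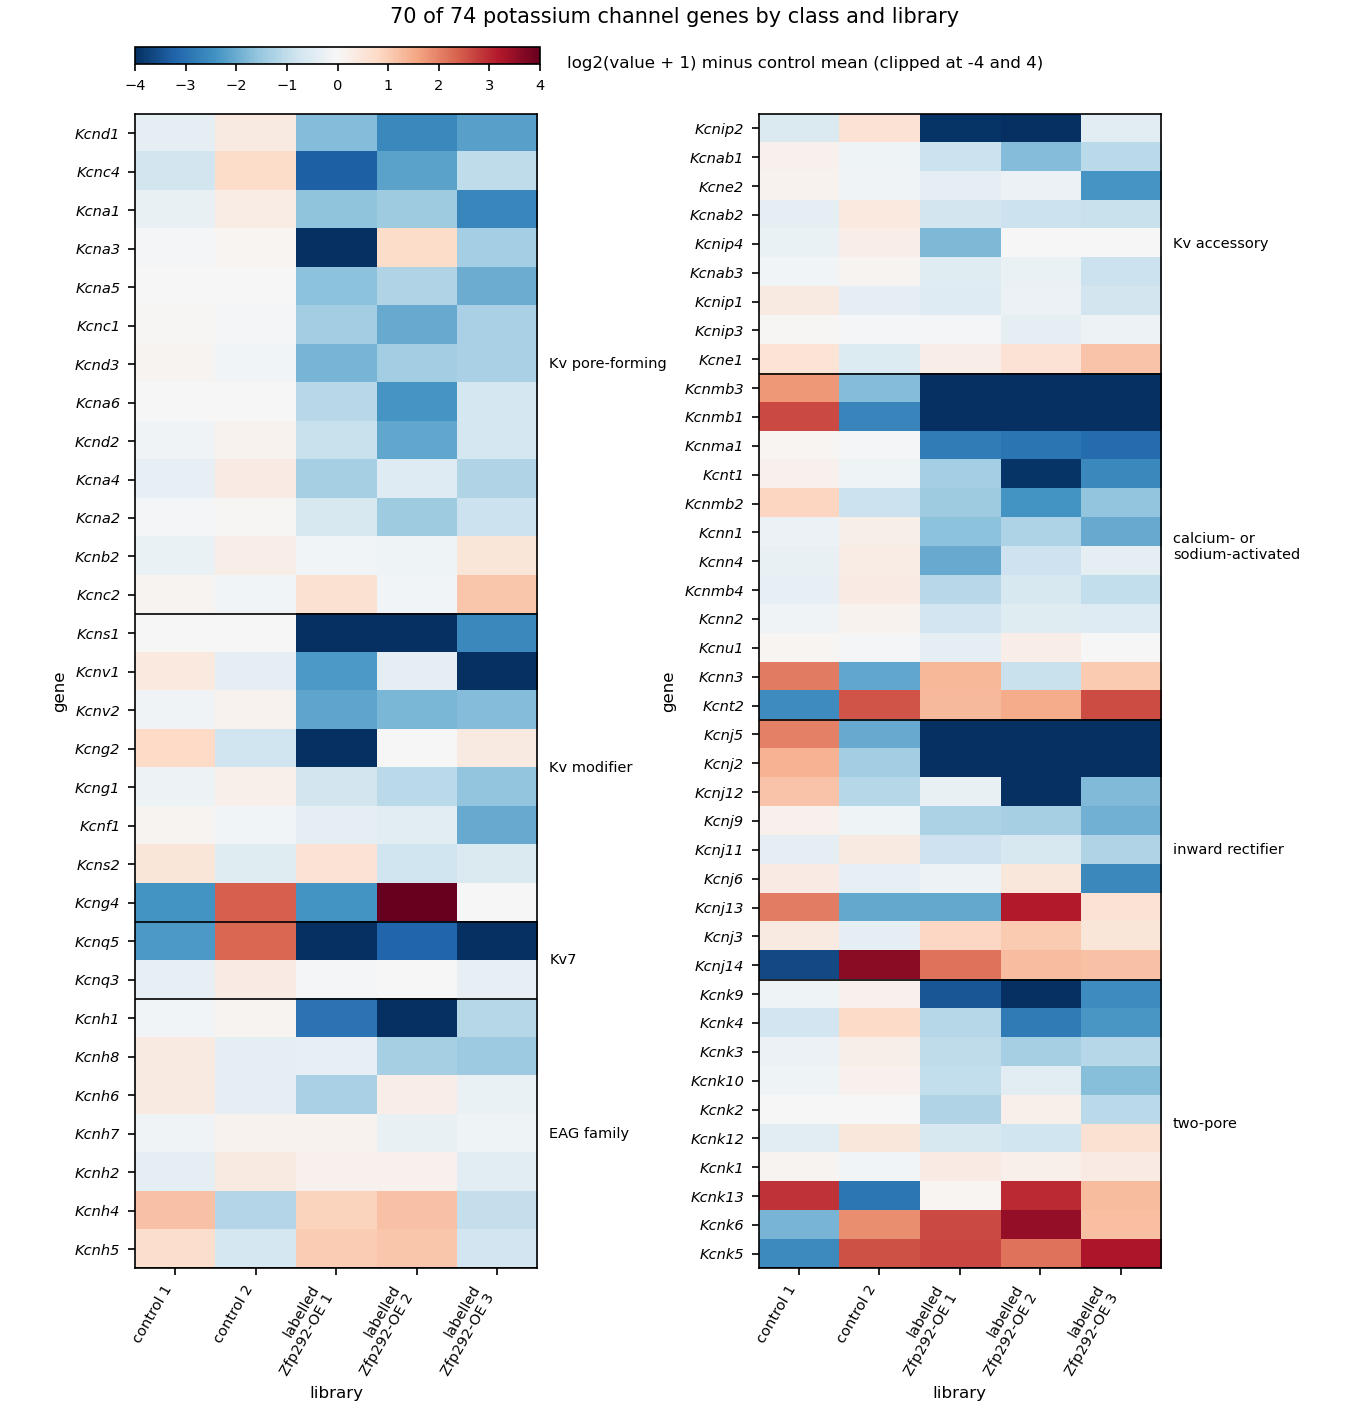
Of the 74 genes, 70 (rows, by class) in each library (columns), coloured by log2(value + 1) minus the control mean, clipped at −4 and 4. Kcnma1, Kcnd3 and Kcnv2 are blue in all 3 libraries labelled Zfp292-OE, while Kcnk1, Kcnh7 and Kcnip3 stay near white in all 5.

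Kcnv2, a modifier subunit of photoreceptor channels whose loss in people causes a cone dystrophy (Entrez 240595, chromosome 19, 27322061 to 27337179), was the only call among 8 modifiers. The controls had 4088 and 4955 and the 3 libraries labelled Zfp292-OE 1043, 1279 and 1357, with means of 4522 ± 613 (SD, n = 2) and 1226 ± 164 (SD, n = 3). The libraries of each group were close to one another, and it fell by 1.88 on the log2 scale (SE 0.23, limma adjusted p = 0.00083). The rod channel subunits Cnga1 (9880 and 11140 against 2006, 2255 and 1222) and Cngb1 (11594 and 11360 against 2305, 2588 and 2530) fell too.

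The other modifiers were scarce. Kcns1 had 59.9 and 62.4 in control and 2.28, 0 and 9.42 in the others, a wide gap in each library that did not pass (limma adjusted p = 0.10; 11 reads in all over the latter 3). Kcnf1 had 173 and 150 against 127, 121 and 38.7, and Kcns2 had 187 and 94.0 against 197, 76.1 and 88.9. Kcng1 was lower without overlap (57.8 and 77.8 against 39.9, 31.0 and 22.0, limma adjusted p = 0.41). Kcng2, Kcng4 and Kcnv1 had a mean of at most 25.2 and at least 1 library labelled Zfp292-OE at 0. The class median was −1.29 with 1 lower (12.5%, against 7.38% of all genes tested), 0 higher and 7 not past the threshold.

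Of 9 accessory subunits of Kv channels, 1 fell (11.1%, against 7.38% of all genes tested), 0 rose and 8 did not pass. Their median log2 fold change was −0.60. Kcnab1, a cytoplasmic beta subunit of Kcna channels (Entrez 16497, chromosome 3, 64949212 to 65378225), fell from 1379 and 1080 to 665, 367 and 583, a log2 fold change of −1.22 (SE 0.35, limma adjusted p = 0.041). The call was lost without library 1, 2 or 3 labelled Zfp292-OE (limma adjusted p = 0.051, 0.087 and 0.056), after quantile normalization (0.10) and with no filter (0.061). Kcnab2 had 1004 and 1709 against 789, 719 and 700 and did not pass (log2 fold change −0.83, limma adjusted p = 0.097; 0.035 in DESeq2), nor did Kcnab3 (704 and 817 against 545, 627 and 415).

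The Kcnip proteins are calcium sensors that bind Kcnd pores and raise their surface number. Kcnip1 had 6960 and 4164 in control and 3727, 4580 and 3267 in the others, which overlap (log2 fold change −0.49, 95% interval −1.04 to 0.05). Kcnip3, also known as a repressor of transcription, had 2533 and 2411 against 2339, 1902 and 2138 (−0.22, 95% interval −0.68 to 0.24). Kcnip4 was low in library 1 labelled Zfp292-OE alone (592 and 866 against 204, 722 and 706). Kcnip2 was low in libraries 1 and 2 at 9.13 and 2.82, but stood at 115 in library 3, between its control values of 104 and 228. Kcnd3 was at 0.914 and 0.834 times Kcnip3 per kb in the controls and at 0.255, 0.433 and 0.415 times in the others.

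Of the small membrane subunits, Kcne2 was the second most abundant member per length in control. It had 3086 and 2541 in control, 2130 and 2372 in libraries 1 and 2 labelled Zfp292-OE and 540 in library 3, so that library alone stood far below (limma adjusted p = 0.22). Kcne1 had 235 and 109 against 195, 242 and 353, with overlap.

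**Figure D4:**
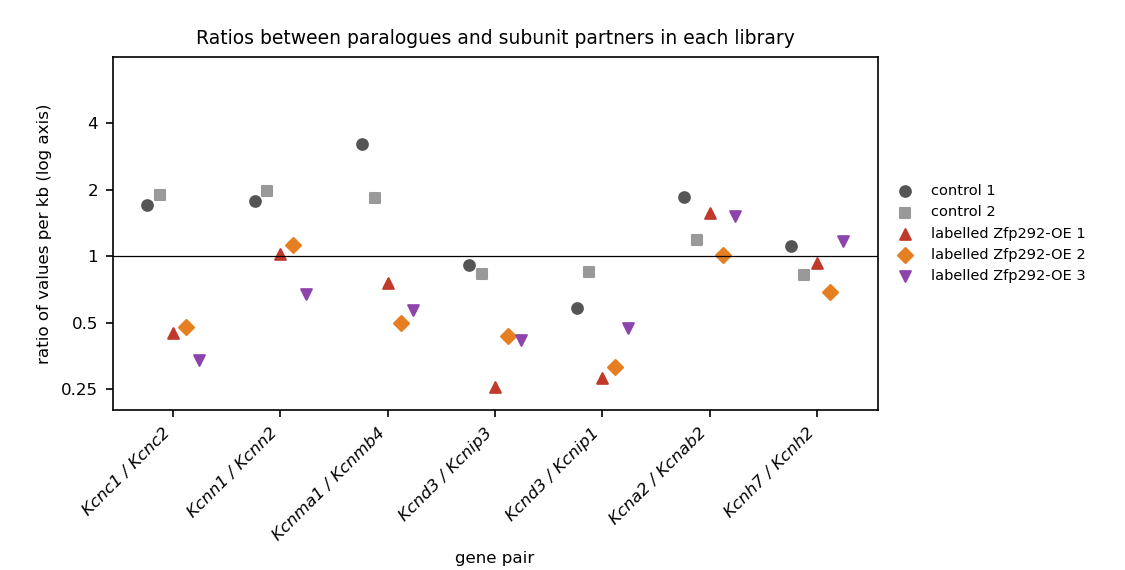
Ratio of 2 genes' normalised read counts per kb of exon (vertical log axis) in each library, for pairs of paralogues or subunit partners. The ratio of Kcnc1 to Kcnc2 is 1.71 or above in both controls and 0.479 or below in the others, and the ratio of Kcnh7 to Kcnh2 overlaps between the groups.

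The EAG family showed 0 calls among 7 members, where 7.38% of all genes tested were lower and 10% higher. At such shares 0 calls do not set so small a class apart, here or in the classes below. The family includes the ERG channels, which open slowly and deactivate late. Kcnh7 had 2740 and 3330 in control and 3329, 2461 and 2705 in the others, a log2 fold change of −0.10 (95% interval −0.58 to 0.37). Kcnh2, known from the heart, had 784 and 1288 against 1139, 1143 and 736 (−0.03, 95% interval −0.78 to 0.72), and Kcnh6 had 307 and 184 against 97, 284 and 198. These 3 overlapped between the groups. The sign for Kcnh2 turned with the processing, and that for Kcnh7 only when control library 2 was left out (0.036). Kcnh1 was the only member of the family without overlap, at 136 and 159 against 18.3, 3.76 and 65.9 (limma adjusted p = 0.11). Over all genes tested 25.7% were lower without overlap. Kcnh8, Kcnh5 and Kcnh4 overlapped. The class median was −0.10, near that of all genes.

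The Kcnq (Kv7) channels carry the slow M current that limits repeated firing. None of the 4 passed, where 7.38% of all genes tested were lower and 10% higher. Their median log2 fold change was −0.75. Kcnq3 overlapped, at 303 and 487 against 367, 378 and 308. Kcnq5 rested on control library 2: it had 4.36 and 126 against 0, 1.88 and 0, which is 168 reads over the controls and 2 over the others (limma adjusted p = 0.23; 0.021 in DESeq2).

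Inward rectifiers had 0 calls among 9 members, where 7.38% of all genes tested were lower and 10% higher. The class median log2 fold change was −0.89. Kcnj3 and Kcnj9 encode subunits of the channels that G protein beta-gamma subunits open. They lay on opposite sides: Kcnj3 had 583 and 351 in control and 799, 936 and 630 in the others (log2 fold change 0.78, limma adjusted p = 0.17), while Kcnj9 had 395 and 306 against 145, 139 and 90.0 (−1.5, limma adjusted p = 0.078). Kcnj9 passed in limma with equal totals (adjusted p = 0.049) and in DESeq2 (adjusted p = 0.033). Exons annotated to other genes cover 31.1% of the exon bases of Kcnj3, the largest part from an antisense gene. Kcnj11, the pore of the ATP-sensitive channel, had 102 and 166 against 73.0, 82.7 and 56.5. Kcnj6, Kcnj12, Kcnj13 and Kcnj14 were scarce and overlapped.

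In all, 4 members had reads in the controls and 0 in all 3 libraries labelled Zfp292-OE, most of them in control library 1. These were Kcnj5 (126 and 6.93), Kcnj2 (48.0 and 6.16), Kcnmb1, the beta subunit of smooth muscle BK channels (99.2 and 1.54), and Kcnmb3 (53.4 and 3.85). All 4 met the mean of 10 through the controls alone, as did Kcns1, Kcnv1, Kcnk9 and Kcnq5. All of these are counted among the 43 members below both controls. Against 3 reads over the group, the control means of the 4 genes at 0 give bounds of 64.0-fold, 26-fold, 48.3-fold and 27.5-fold lower. These bounds cover counting error in the 3 libraries alone and not the wide gap between the 2 controls. PCR copies of a molecule could not be told from separate ones. None of the 4 passed in limma (adjusted p = 0.16 or above). Kcnj2 and Kcnj5 did with no filter, and Kcnj5 and Kcnmb1 in DESeq2 (adjusted p = 0.0045 and 0.022). Pericyte and mural markers moved alongside: Rgs5 had 1233 and 461 against 0, 16.0 and 2.09, and Acta2 415 and 43.9 against 3.42, 1.88 and 0, as did Kcnj8 (592 and 43.9 against 2.28, 0 and 0), the vascular channel left out by name. Of the 8 markers in that list 4 fell and 3 did not pass among the 7 tested, where 7.38% of all genes tested were lower. The sum of the list was 1669 to 3303 in control and 670 to 903 in the others. Rgs5, Kcnj8, Abcc9, Acta2 and Anpep were at 0 in at least 1 library, while Notch3 (345 and 497 against 487, 437 and 513) and Pdgfrb (393 and 440 against 156, 177 and 374) were read in all. The part of these cells in the 4 genes was not tested. Kcnj10, a Müller glia channel also left out by name, overlapped (1436 and 2397 against 1845, 1088 and 1259).

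Two-pore channels had 0 calls among 10 members, where 7.38% of all genes tested were lower and 10% higher. This class held the most abundant member. Kcnk1, a weak background channel, had 7140 and 6030 in control and 8290, 7556 and 8317 in the others, all 3 above both controls (log2 fold change 0.29, 95% interval −0.06 to 0.65, limma adjusted p = 0.22). It ranked first per kb of exon in all 5 libraries. Kcnk3, an acid-sensitive background channel, had 380 and 531 against 222, 179 and 202 (−1.16, limma adjusted p = 0.10), and passed in DESeq2 (0.043). Kcnk9, its relative, had 94.8 and 119 against 9.13, 0 and 17.8 (limma adjusted p = 0.083). Kcnk2 and Kcnk10, stretch-sensitive channels, had 238 and 238 against 104, 275 and 113, and 225 and 282 against 127, 189 and 76.4. Kcnk4 was lower without overlap (53.4 and 159 against 41.1, 12.2 and 17.8), and Kcnk5, Kcnk6, Kcnk12 and Kcnk13 overlapped.

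The makeup of channel transcripts differed accordingly. Summed over the 74 genes, normalised read counts came to 67355 and 67595 for the controls, and to 39951, 39254 and 38203 for the 3 libraries labelled Zfp292-OE. Per kb of exon, Kcnk1 made up 23.8% and 20.9% of the sum in the controls and 38.9%, 35.1% and 42.7% in the others. The share of Kv pore-forming genes was 15.9% and 18.4% against 9.54%, 8.92% and 12.3%, and that of modifiers 6.92% and 8.32% against 2.90%, 3.47% and 3.56%. The calcium- or sodium-activated class went from 9.78% and 9.95% to 4.57%, 5.58% and 5.63%. Kcnma1, singled out with its low values known, is part of that share. It held 2.93% and 2.73% in the controls and 0.56%, 0.51% and 0.50% in the others. The EAG family held 3.99% and 4.66% of the sum in control and 5.81%, 5.56% and 4.82% in the others. Shares are relative, so the share of a class can be higher while its level is the same. In control the order per kb was Kcnk1, Kcne2, Kcnip1, Kcnv2, Kcnip3, Kcnd3 and Kcnma1, and Kcnma1 stood at rank 28 in the other group.

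**Figure D5:**
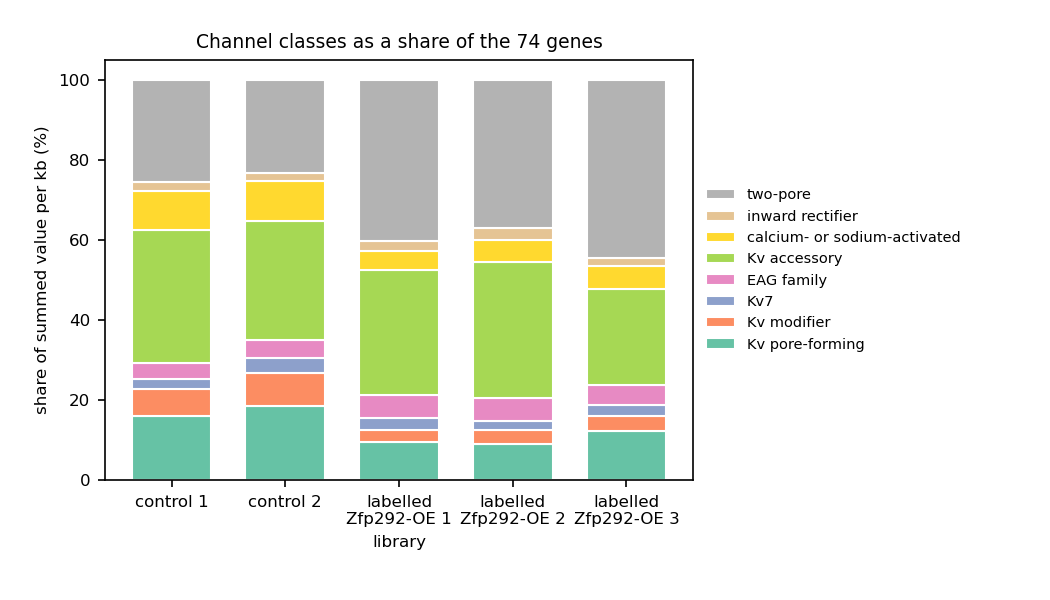
Share of each channel class in the summed normalised read count per kb of exon of the 74 genes (vertical axis, %), for each library. The two-pore class takes 23.3% to 25.6% in the controls and 37.0% to 44.5% in the libraries labelled Zfp292-OE, nearly all of it Kcnk1.

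In 5 lists of genes that work with these channels or beside them, the counts of lower genes are given against 7.38% lower and 10% higher over all genes tested. Cnga1 is also in the rod marker list and Abcc9, a partner protein, in the mural list, so these counts partly repeat the marker counts. Of 8 tested partner proteins, 3 fell, among them Cntnap2, which gathers Kcna channels on axons (7932 and 8071 against 5536, 4082 and 4102), and Lrrc38, a BK gamma subunit (492 and 502 against 128, 108 and 103, limma adjusted p = 0.017); 0 rose, and the median was −0.88. Of 8 HCN and cyclic nucleotide-gated channels 4 fell and 0 rose, with a median of −1.44. Of 17 calcium channel genes 8 fell and 0 rose, with a median of −1.18, among them Cacna1f, the photoreceptor terminal channel (975 and 1071 against 155, 175 and 318), and Cacna2d4 (9359 and 9368 against 3047, 2935 and 5116). Of 10 sodium channel genes 1 fell, a share near that of all genes: Scn3b (1427 and 1748 against 582, 752 and 616). In that list 0 rose, and the median was −0.69. Of 16 genes of the sodium pump and cation-coupled transporters 6 fell and 0 rose, with a median of −1.15, among them the pump subunit Atp1b2 (35684 and 38328 against 15194, 14804 and 13834).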

How the data were processed

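The deposited table gives a normalised signal per gene, with Entrez identifiers and symbols. The values show it to be read counts that the authors divided by 1 factor per library: 100% of values were whole multiples of the library's smallest value, within 1e-06 of a read. GRCm38 and mm10 are named in the submitters' processing notes; for the aligner, counter, strand setting, annotation and scaling method no source used here gives a name. Per the labels' protocols, 1.3 µg RNA per sample went into a SMARTER mRNA kit.

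Groups follow the labels. The main test, for genes whose mean was at least 10, was limma 3.58.1 with its trend option (R 4.3.3, two-sided) on log2(value + 1), with Benjamini-Hochberg adjustment over all genes tested and a threshold of 0.05. Fold changes of low genes depend on the pseudocount and can differ in size, and for some members in sign, from those of the count models. Because the deposited signal is normalised, edgeR 4.0.16 and DESeq2 1.42.0, run on the recovered whole reads, served as alternatives; their scripts and the limma fit were tested on simulated data. Also tried were TMM, quantile and equal-total scaling, pseudocounts of 0.5 and 10, a stricter filter (mean of at least 50) or none, leaving out 1 library at a time, and blocking on replicate number. Exon lengths came from GENCODE M21, gene spans and promoters from RefSeq; all 74 members matched both annotations for length and span.

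Members and lists were chosen with earlier results of these data known. Named were Kcnma1, each member past the threshold, the 3 most abundant of each class, those nearest the mean limit, the 2 genes of lowest p in each related list and the 2 most abundant of each marker list; further names were chosen after their values were seen. A few genes that the rule names are not reported here by name; they stay in every count, median and sum, and are not drawn as genes in the plots. The markers fixed covered rods, cones, bipolar, amacrine and horizontal, ganglion, Müller glia, progenitor, proliferating, mural, endothelial, microglial and red cells. There were 0 columns of other samples.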

Additional observations from a re-analysis of the deposited data

How the results depend on the processing

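The count of 10 lower members stayed within 1.5 times in 12 of 15 alternatives, and the count of higher members was 0 in all 15. DESeq2 called 17 lower, all 10 among them. Leaving out 1 library gave 0 to 9 lower members, with 0 in each fit that had 1 control, where the lone control is assumed to vary like the other group; those fits rest on fewer samples. Without library 1, 2 or 3 labelled Zfp292-OE, 8 of the 10 were kept each time. With equal totals, the median of all genes went from −0.06 to −0.27 (log2) and that of the members to −1.23, with 12 lower; quantile normalization gave −0.65 for the members, with 8 lower. Over all 74 members, 17 had the opposite sign in at least 1 alternative, none of them among the 10; the scarce Kcnj14, with 1.52 in limma, ran from −2.07 to 5.12. Among the 30 members named by rule the sign turned for 4: after quantile normalization Kcnh2 was 0.19, Kcnq3 0.19 and Kcns2 0.12, and with a replicate block Kcnh2 was 0.18. Leaving out 1 library gave −0.39 to 0.33 for Kcnh2, −0.25 to 0.036 for Kcnh7, −0.48 to 0.21 for Kcnq3 and −0.76 to 0.23 for Kcns2. Kcnip2 was added without library 3 labelled Zfp292-OE. The cause was not tested. Both groups carry replicate numbers, but the labels do not say that a number marks a shared litter or batch. Deviations of same-numbered libraries from their group means correlated at −0.04 and −0.03 across genes. The deviations of the 2 controls are mirror images of each other, so these values are not separate checks. They cannot show or exclude a shared litter or batch. With the replicate block 13 members were lower, 9 of the 10 among them and Kcna5 not, and the added calls were Kcnc4, Kcnh1, Kcnip2 and Kcnk9. The 20 members with a mean under 50 had calls only in some settings (Kcnj5, Kcnmb1 and Kcnq5 in DESeq2, Kcnj2 and Kcnj5 with no filter, Kcnk9 with a pseudocount of 10 or a replicate block), and the part of depth in this was not tested.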

Other observations

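For the marker lists not described above, the counts were as follows, against 7.38% lower and 10% higher over all genes tested. The part of these lists in the channel results was not tested. Of 7 cone markers 4 fell and 0 rose, with Gnb3 among them and Opn1sw not (49876 and 37935 in control against 51801, 40832 and 21775). Of 10 amacrine and horizontal markers 1 fell and 0 rose, and of 8 ganglion cell markers 0 passed in limma. Microglial markers passed in 0 of 8 cases, with sums of 3001 and 10157 in control against 2282, 4482 and 369, lowest in library 3 labelled Zfp292-OE. Of 5 endothelial markers tested 1 rose, Cldn5 (234 and 203 against 1995, 3228 and 1728). Of 3 red cell markers tested 0 passed.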
